A study of Homo sapiens with 8 samples.

Results

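AHNAK and AHNAK2 encode a pair of giant scaffold proteins, and both transcripts were recovered as series of METTL3 immunoprecipitation peaks in PC3 cells. RNA immunoprecipitation followed by sequencing (RIP-seq) had been performed with an anti-METTL3 antibody in PC3 and LNCaP, established human prostate cancer cell lines, with METTL3 IP and input libraries in 2 replicates per line (8 samples). Both lines carried no labelled treatment or genetic change, and the labels give 20% fetal bovine serum for LNCaP and 10% for PC3. The METTL3 IP used 80% of a lysate, input and rabbit IgG 10% each, and no IgG library was used here. The labels do not say whether replicates came from separate cultures, and the files used are a single peak list for each line, without values per library or expression levels. No error between replicates can therefore be given, the identity of the lines could not be checked against marker genes, and sequencing depth is unknown. The peaks described here are those that lie whole within the GRCh38 span of AHNAK or AHNAK2. There were 23 of them among 3649 peaks in both lists, 20 on AHNAK and 3 on AHNAK2. All 23 were in the PC3 list of 1033 peaks, and none were in the LNCaP list of 2616. The members were chosen by the authors' peak call, whose criteria are not given in the sources used here. The fold and p-value of each peak, the authors' own throughout, come from the same comparison and are given as a description, with no test. The authors' FDR values quoted below were corrected over the listed peaks only.

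METTL3 is the catalytic subunit of the nuclear complex that places N6-methyladenosine (m6A) on messenger RNA. m6A is found mainly in long internal exons and around stop codons. AHNAK, also called desmoyokin, is a very large protein built mostly of repeated units, which binds the S100A10 and annexin A2 complex at the plasma membrane and takes part in membrane organisation, calcium channel regulation and TGF-beta signalling. AHNAK2 is its paralog with a similar repeat structure. In both genes a single giant exon encodes nearly the whole protein. Exon positions were not used here, so positions below are distances along the gene.

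AHNAK (gene 79026) spans chr11:62433544-62546806, 113263 bp, on the minus strand, and RefSeq lists 10 transcripts for it. AHNAK2 (gene 113146) spans chr14:104937253-104978374, 41122 bp, also on the minus strand. The start sites used were position 62545826 for AHNAK and position 104978374 for AHNAK2, which has another at 104970507. The AHNAK start site lies 980 bp inside the annotated span, so the bases just before it are still within the span. They are shown because a PC3 peak on the opposite strand reached into them. The sequence is RefSeq GRCh38.p14, chr11:62545827-62546076, minus strand, 250 bases ending at the start site, and capitals mark the 79 bases under that peak.
AHNAK upstream: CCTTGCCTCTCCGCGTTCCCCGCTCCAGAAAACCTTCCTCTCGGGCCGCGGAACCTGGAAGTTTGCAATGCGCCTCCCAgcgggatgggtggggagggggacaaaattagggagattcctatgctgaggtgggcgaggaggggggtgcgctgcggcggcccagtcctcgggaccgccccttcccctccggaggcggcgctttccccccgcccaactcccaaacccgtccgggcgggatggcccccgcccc
The motif GGAC, which is the common core of m6A sites in RNA, was found 2 times on this strand and 2 times on the other. It was found 0 times on either strand in the 79 bases under the peak, and the rest of that peak was not searched. On one strand or the other it was present in 82.0% of the 35116 RefSeq windows of the same length. Peak sequences inside the genes were not used here.

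The 20 AHNAK peaks began 9.28 kb after the start site and ended at 29.0 kb. They lay between 62516829 and 62536548, a stretch of 19720 bp that makes up 17.4% of the gene span. Within it the peaks covered 4626 bp, or 23.5% of the stretch. No listed peak lay in the remaining 83285 bp towards the end of the span (73.5% of it). RefSeq lists 10 transcripts for this span and their separate ends were not used. These bases need not belong to the transcript that carried the peaks. Every peak was on the minus strand, the strand of the gene. Over the 793 PC3 peaks whose gene had a strand in the RefSeq table, 97.0% were on the strand of their gene.

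**Figure D1:**
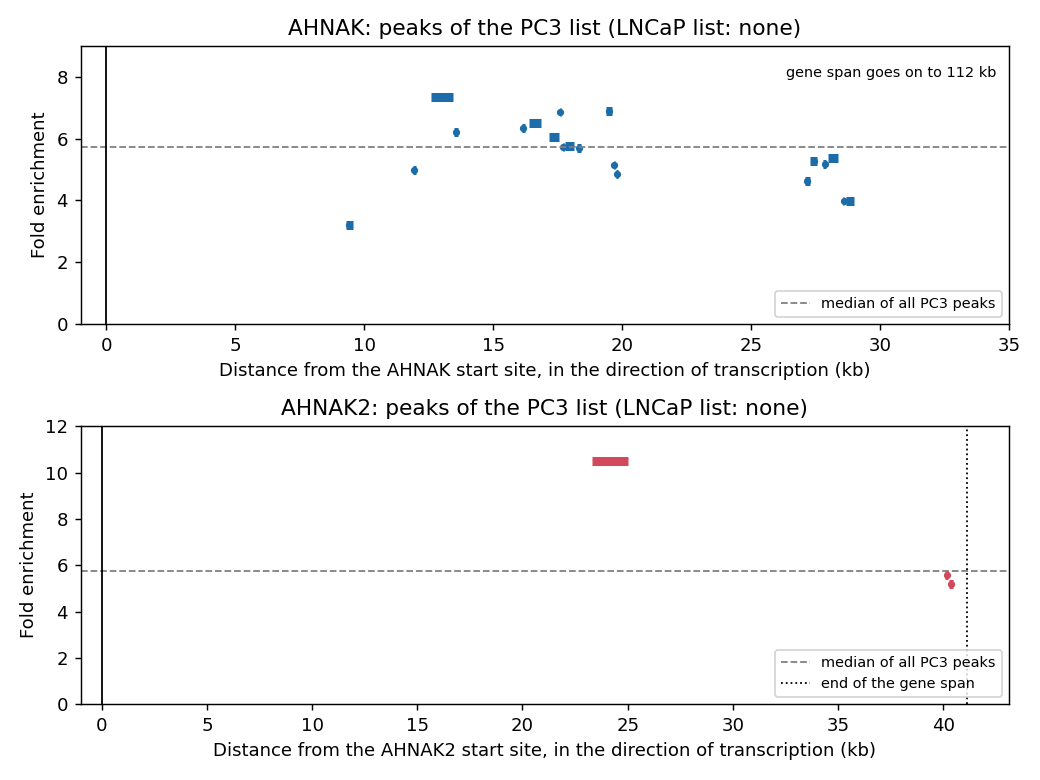
Fold enrichment (vertical axis, linear) of each PC3 peak against its distance in kb from the start site, for AHNAK (blue) and AHNAK2 (red); a bar is as long as the peak and a dot marks its midpoint. The dashed line is the median fold of all PC3 peaks, 5.74; the AHNAK panel ends at 35 kb of a longer span, after which no peak was listed. The AHNAK peaks sit between 3.21 and 7.34, and the first AHNAK2 peak at 10.5 stands above its 2 others.

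Along AHNAK the peaks fell into 4 groups separated by more than 1000 bp without a peak, a division made after the positions had been seen. The first group was a single peak, chr11:62536267-62536548, 282 bp long, with a fold of 3.21 (FDR 1.10e-07). It had the lowest fold of the series. The second group held 3 peaks between 62532179 and 62533929, at 11.9 to 13.6 kb from the start site. It contained the longest peak, chr11:62532379-62533254 (876 bp), which had both the largest fold, 7.34, and the smallest p, 4.40e-18 (FDR 2.88e-17). Its neighbour of 176 bp began 25 bp away and had a fold of 6.20, and a 101 bp peak on its other side had a fold of 5.00.

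The next group held the most peaks, 10 between 62526004 and 62529704 at 16.1 to 19.8 kb. Peaks covered 52.3% of its extent, less than the 65.8% of the second group and the 66.1% of the fourth. Its folds ran from 4.85 to 6.89 with a median of 5.90. The longest peak of this group, chr11:62528954-62529429 (476 bp), had a fold of 6.50 (FDR 2.24e-11). The largest fold, 6.89, was on chr11:62526229-62526454 (226 bp). In this group 4 of the 10 peaks were 51 bp long, the shortest length in the PC3 list. After this group came 7274 bp without a peak, the longest interval between neighbours in the gene.

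The fourth group held 6 peaks between 62516829 and 62518729 at 27.1 to 29.0 kb. Its folds ran from 3.98 to 5.38, and all 6 were below the PC3 median of 5.74. In the 2 groups before it, 8 of 13 peaks were above that median. Its fold range and that of the group before it overlapped between 4.85 and 5.38. The last peak in the direction of transcription, chr11:62516829-62517129 (301 bp), had a fold of 3.98 (FDR 1.65e-09).

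By fold the AHNAK peaks were ordinary members of the PC3 list. Their median fold was 5.54, against 5.74 over the list, and 8 of 20 were above the list's median. Their median p was 1.25e-08, against 6.37e-09, and 9 of 20 were smaller than the list's median. The weakest, a 51 bp peak at chr11:62526104-62526154, had a p of 3.28e-06, while the list ended at 1.59e-05. The peaks were short on the genome, with a median length of 176 bp against 922 bp, and 55.0% of them were under 200 bp against 29.4% of the list. Listed lengths run from first to last genomic base and include any intron between, and PC3 peaks reached 151041 bp. Exon positions were not used, so whether AHNAK peaks are also shorter along the RNA was not tested.

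**Figure D2:**
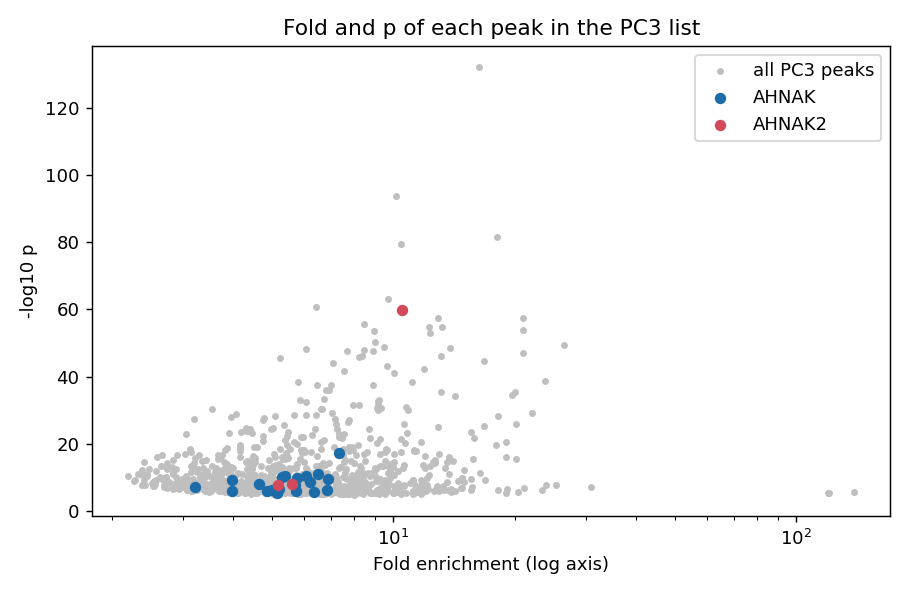
Each point is a peak of the PC3 list, with its fold enrichment on a logarithmic horizontal axis and the negative log10 of its p on the vertical axis; AHNAK is blue, AHNAK2 red and all other peaks grey. The AHNAK peaks lie in the body of the list, and 1 AHNAK2 peak ranks number 7 of 1033 by p.

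AHNAK2 carried fewer peaks, but 1 of them was among the strongest of the list. The peak chr14:104953352-104955059 was 1708 bp long and began 23.3 kb after the start site. Its fold of 10.5 ranked number 125 and its p of 1.40e-60 ranked number 7 of the 1033 PC3 peaks. The other peaks of this gene, chr14:104938127-104938302 and chr14:104937927-104938102, were each 176 bp long and lay 25 bp apart. Their folds were 5.60 and 5.17, with FDRs of 1.45e-08 and 3.01e-08, close to the median peak of the list. They lay 40.1 to 40.4 kb from the start site, and the last ended 674 bp before the end of the span. The first peak and this pair were separated by 15049 bp. All 3 were on the minus strand. The neighbouring gene PLD4 shares 533 bp with the AHNAK2 span, and the last peak lay 141 bp outside PLD4.

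The peaks of the paralogs lay in different parts of their annotated spans. With each span divided into 3 equal parts in the direction of transcription, all 20 AHNAK peaks had their midpoint in the first part, from 9.18% to 26.3% of the span. Among PC3 peaks on genes with a known strand, 14.9% were in the first part (118 of 793), and AHNAK alone gave 17.0% of these. Without AHNAK the share was 12.7%. Of the 46 genes with at least 5 PC3 peaks and a known strand, AHNAK was the only one with all of its peaks in the first part. The AHNAK2 peaks were at 58.8%, 97.7% and 98.1% of the span. Percentages depend on the annotated span, for which RefSeq lists 10 transcripts on AHNAK and 4 on AHNAK2. Where each transcript ends was not used, so whether the peaks differ in place along the mRNA was not tested. Which transcripts these cells made was not measured here.

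**Figure D3:**
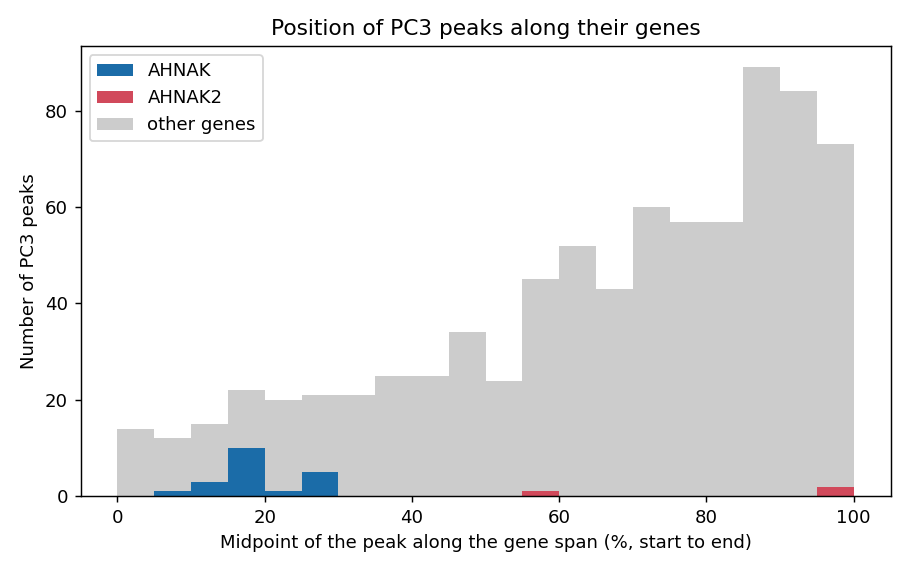
Number of PC3 peaks (vertical axis) by the midpoint of the peak along its gene span in percent, from the start (0) to the end (100), in bins of 5 points, for genes with a known strand. The grey bars, other genes, grow towards the end, while the blue bars of AHNAK lie between 5 and 30 and the red bars of AHNAK2 at 55 to 60 and at 95 to 100.

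The short AHNAK peaks were set on a common grid. In 19 of 20 the starts lay whole steps of 25 bp apart, and the same 19 had a length of whole steps plus 1 bp. The first peak, nearest to the start site, was the exception in both. Of the 19 intervals between neighbours, 14 were under 300 bp, and 3 were a single step of 25 bp from the end of a peak to the start of the next. Joined at that distance, the 20 peaks made 17 stretches. On AHNAK2 all 3 starts were in the same register, and the 1708 bp peak was the one whose length was not a whole number of steps. Over the 57 genes with at least 5 PC3 peaks, the commonest register held a median of 33.3% of a gene's peaks, against 95.0% on AHNAK. These genes had a median of 6 peaks, and the share was matched neither for the number of peaks nor for exon positions. The share reached at least 90% on 4 of these genes, AHNAK, MUC5B, MUC5AC and DSP, named after their values had been seen. MUC5B and MUC5AC encode gel-forming mucins and DSP encodes the desmosomal protein desmoplakin. FLNA, which encodes filamin A, had 2 of 16 peaks in its commonest register, and MACF1 had 2 of 9. No caller or window size is stated in the labels or file headers.

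**Figure D4:**
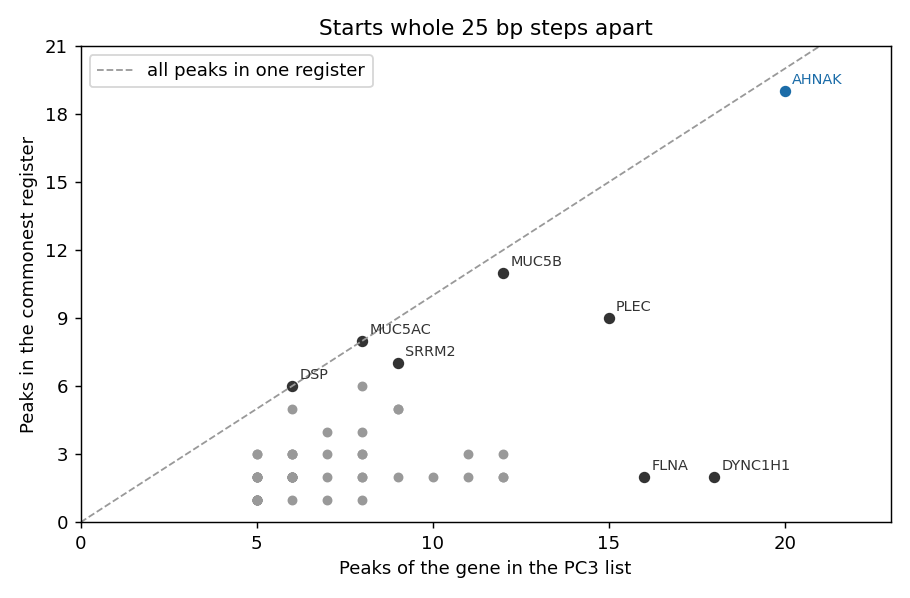
For each of the 57 genes with at least 5 PC3 peaks, the number of its peaks (horizontal axis) and how many of them have starts whole steps of 25 bp apart (vertical axis); genes with the same values share a point, and the dashed line marks equality. AHNAK lies near the line at 19 of 20, as do MUC5B at 11 of 12 and MUC5AC at 8 of 8. PLEC lies between at 9 of 15, while DYNC1H1 and FLNA have 2 each.

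The lines did not share a single peak on either gene. Of the 20 AHNAK and 3 AHNAK2 peaks, 0 met a LNCaP peak by at least 1 bp on the same strand, while 44.4% of all PC3 peaks did. That share was not matched for length: the median was 922 bp over the PC3 list and 176 bp on these genes. A longer interval can meet another more easily. Of the 357 genes with a PC3 peak, 63.6% also carried a LNCaP peak. Since the rule and the lists fix this count, nothing is read from it about METTL3 in LNCaP. The nearest LNCaP peaks lay 82.1 kb from the AHNAK span, within GANAB, and 283.5 kb away on the other side, within INCENP. Around AHNAK2 they lay 50.8 kb away within CEP170B and 164.4 kb away within JAG2. The LNCaP list held 141 peaks on chromosome 11 (5.39% of the list) and 124 on chromosome 14 (4.74%), and the shorter PC3 list 88 (8.52%) and 59 (5.71%). A fold between 3.21 and 7.34, the AHNAK range, was present in 74.6% of LNCaP peaks (1951 of 2616) and 60.3% of PC3 peaks. Its p-values ran to 0.0178, and 88.9% were above the largest AHNAK p. Whether AHNAK and AHNAK2 were transcribed in LNCaP at a level that allows a peak cannot be told from the lists.

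AHNAK had the most peaks of any gene in the PC3 list. DYNC1H1, the heavy chain of cytoplasmic dynein, followed with 18 in PC3 and 13 in LNCaP, and FLNA with 16 and 15. The AHNAK count includes neighbours a single step of 25 bp apart, and joining these left 17 stretches. Peaks of the other genes were not joined, so the rank of AHNAK after joining is not known. Among the 57 genes with at least 5 PC3 peaks, 10 (17.5%) had none in LNCaP, and AHNAK led them, ahead of MUC5B with 12. Per length AHNAK was less extreme, with 1.77 peaks per 10 kb of span, number 16 of the 57, where the median was 0.83 and FLNA had 6.13.

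**Figure D5:**
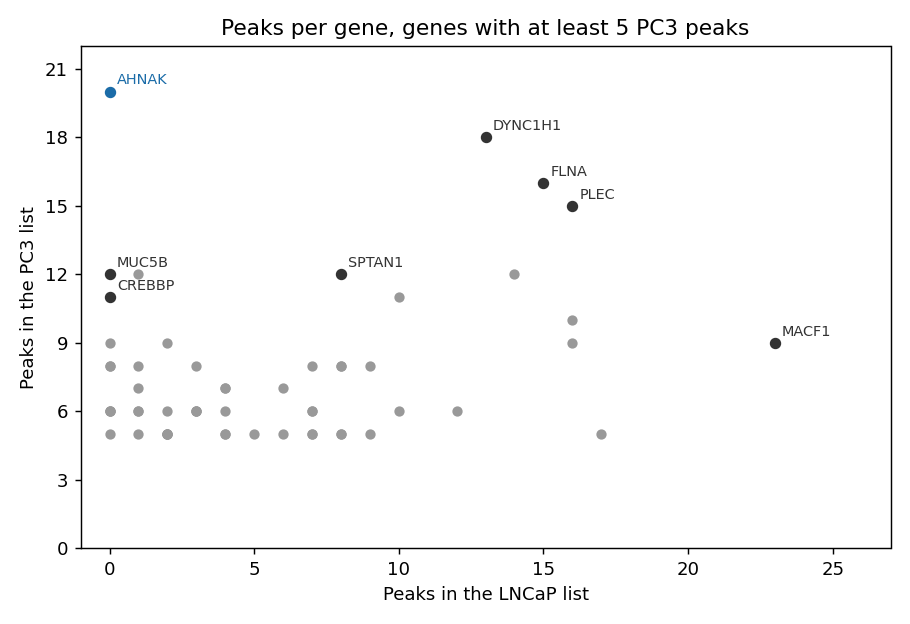
Peaks in the LNCaP list (horizontal axis) against peaks in the PC3 list (vertical axis) for the 57 genes with at least 5 PC3 peaks; genes with the same counts share a point. AHNAK stands at 20 and 0, whereas DYNC1H1, FLNA and PLEC have 13 to 16 LNCaP peaks beside 15 to 18 in PC3.

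Several other giant scaffold and cytolinker genes were listed in both lines. PLEC, which encodes plectin, had 15 PC3 and 16 LNCaP peaks. MACF1, a crosslinker of actin and microtubules, had 9 and 23, DSP had 6 and 7, and SPTAN1, the non-erythroid alpha spectrin, had 12 and 8. SPTBN1, a beta spectrin, had 6 in PC3 and 0 in LNCaP, as on the AHNAK genes, whereas EPPK1, which encodes epiplakin, had 0 and 5. DST, which encodes dystonin, had none in either. Of the 5 with a PC3 peak, 4 also had a LNCaP peak, beside 63.6% of all genes with a PC3 peak. The median PC3 fold was 9.04 on PLEC, 10.9 on SPTAN1 and 10.8 on SPTBN1, above every AHNAK peak, and 5.85 on DSP and 5.59 on MACF1, within the AHNAK range.

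Of 11 genes for proteins known to bind AHNAK or act with it, 1 (9.09%) carried a PC3 peak and 3 (27.3%) a LNCaP peak. Over all protein-coding genes these shares were 1.79% and 5.41%, and counts of 1 and 3 are too small to read as a difference. MYOF, which encodes the membrane repair protein myoferlin, had 2 PC3 peaks on its minus strand with folds of 5.66 and 4.50. In LNCaP, PLCG1 (phospholipase C gamma 1) had 2 peaks with folds of 11.1 and 6.62. PRKCA (protein kinase C alpha) had 1 with a fold of 4.72, 15069 bp long. CACNA1C, an L-type calcium channel subunit, had 1 with a fold of 5.41, 328721 bp long on a gene span of 727171 bp. The PRKCA and CACNA1C lengths are genomic intervals that include any introns, and which bases within them were enriched is not known. The authors' p on the PLCG1, PRKCA and CACNA1C peaks ran from 0.00154 to 0.00651, above the LNCaP median of 0.00137. On the MYOF peaks, 126 and 51 bp long, it was 3.39e-07 and 8.05e-07. No peak of either list touched S100A10, ANXA2, S100B, DYSF, CACNB2, PRX or SMAD3.

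Just outside the rule, 2 PC3 peaks crossed the start of the AHNAK span. A plus-strand peak at chr11:62545998-62547458 (1461 bp) shared 809 bp with the span and covered the capitals of the sequence above. Its fold was 3.67 and its p of 1.80e-17 ranked number 168. It ran opposite to AHNAK. The other, at chr11:62546718-62556195 on the minus strand (9478 bp), shared 89 bp with the span and had a fold of 3.59 and a p of 2.64e-08. It ended 3400 bp before the span of the next gene, EEF1G, begins. Counted with these, 22 PC3 peaks touched the AHNAK span. Both folds were near the lowest of the AHNAK series, and LNCaP had no peak that touched either gene.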

How the data were processed

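METTL3 IP and input were sequenced in LNCaP and PC3, and the data analysed were 1 deposited peak list per line. Per the submitters' processing notes, the build was hg38 and the tools included fastp, STAR 2.5.3a, bedtools and deepTools; peak caller, filters and handling of replicates are not given in the sources used here. Per the file headers, each peak carries the authors' linear fold (read as IP over input from the design), p-value, FDR and score. The deposited FDR matched a Benjamini-Hochberg correction over listed peaks alone, and the deposited score was its negative log2. Such an FDR takes no account of regions that were tested but not listed. Peaks were taken as members where the RefSeq span (GRCh38.p14) held them whole, and given to other genes where exactly 1 protein-coding gene did. Strand and start site came from the RefSeq promoter table. Overlap needed 1 bp on the same strand. No test was run, since each line has 1 list. Interval functions were tested on simulated data. Peaks named singly are, by rule, the largest fold, smallest p, longest, first, last and opposite-strand peaks of each gene; others were chosen after their values were seen. The members and gene lists were chosen with earlier results of these data known. Python 3.11.15, pandas 2.3.3 and scipy 1.17.1 were used.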

Additional observations from a re-analysis of the deposited data

How the results depend on the processing

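No paired analysis was possible because the lists hold no values per replicate, and leaving out replicates could not be run either. All 32 alternatives for the number of peaks, the share met by LNCaP, the median fold and the bases covered stayed within 1.5 times a count or within the interval of a median (for AHNAK2, the range of its 3 peaks, which is wide). LNCaP still had 0 peaks on each gene when any overlap of the span was counted, and the overlap with LNCaP was still 0% on either strand. The other settings for these counts and shares (a stricter p, fold or overlap, or neighbours joined) only remove or merge peaks, so their zeros say nothing about stability. For AHNAK in PC3 the count was 22 with any overlap of the span, 17 after joining neighbours and also 17 at a minimum fold of 4. The bases covered were 3992 at that minimum. The largest PC3 p cannot change a PC3 value. A mean weighted by length gave a fold of 5.82 on AHNAK and 9.61 on AHNAK2, whose longest peak carries the weight. The share of LNCaP peaks met by PC3 and the median fold of overlapping peaks were not run, since there were none. Depth is unknown, so how far it limits the lists cannot be said.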
